A study of Mus musculus with 12 samples.

Results

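Genes of cholesterol synthesis were followed in resting splenic B cells, 4 h after stimulation through TLR-2, CD86 or CD40. Members were taken by name: they are all non-control array probes whose gene name was Hmgcs1, Sqle, Insig1, Idi1, Fdps, Fdft1, Cyp51 or Srebf2. These 8 of 50090 gene names on the array had 15 of its 61307 probes, and 14 of the 15 were among the 31596 probes tested. Each gene is described by its brightest probe, which was well above background and unsaturated on all 12 arrays for each of the 8 genes, and its other probes are given where they differed. The names cover enzymes and regulators of synthesis. No receptor for cholesterol uptake is among them.

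The RNA came from RB cells, the resting B cells left when spleen cells of 6 weeks old female BALB/c mice were depleted of cells bearing CD43. All cells were cultured in RPMI medium with fetal calf serum. The 6 conditions were no stimulation, Pam2CSK4 (a synthetic lipopeptide ligand of TLR-2), an antibody to the costimulatory molecule CD86, anti-CD86 with Pam2CSK4, an antibody to CD40 (the receptor for T cell help), and anti-CD40 with Pam2CSK4. Each condition had 2 arrays, 12 in all, hybridised with Cy3-labelled RNA on a custom mouse design. The labels give the 2 arrays of a condition as separate samples without naming separate cultures or animals, so the p-values measure the spread between these samples. The antibody in the anti-CD86 conditions was cross-linked with streptavidin, and cells given an isotype control antibody are not analysed here.

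Cells make cholesterol from acetyl-CoA through mevalonate. HMG-CoA synthase (Hmgcs1) acts near the start, isopentenyl diphosphate isomerase (Idi1) and farnesyl diphosphate synthase (Fdps) build the isoprenoid chain that also feeds protein prenylation, squalene synthase (Fdft1) and squalene epoxidase (Sqle) commit it to sterols, and lanosterol demethylase (Cyp51) trims the sterol ring. SREBP2, the product of Srebf2, is held in the endoplasmic reticulum by the Insig proteins when sterol is plentiful, and when sterol is low it is cleaved and switches on these genes, Insig1 and Srebf2 itself included. Activated lymphocytes need cholesterol for new membrane.

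The 250 bases before the start site are shown for Hmgcs1, Idi1 and Srebf2, because these genes passed the test most often in the comparisons below. RefSeq (GRCm38.p6) gave such a promoter for 5 of the 8 genes, the others being Insig1 and Cyp51. Sqle, Fdps and Fdft1 had no entry. Capitals mark the letters TCACNCCAC of a sterol regulatory element and CCAAT of a CCAAT box, searched on both strands, so that ATTGG is a CCAAT box read on the opposite strand. The windows lie on the plus strand at chr13:119690101-119690350 for Hmgcs1, chr13:8885356-8885605 for Idi1 and chr15:82147019-82147268 for Srebf2.
Hmgcs1: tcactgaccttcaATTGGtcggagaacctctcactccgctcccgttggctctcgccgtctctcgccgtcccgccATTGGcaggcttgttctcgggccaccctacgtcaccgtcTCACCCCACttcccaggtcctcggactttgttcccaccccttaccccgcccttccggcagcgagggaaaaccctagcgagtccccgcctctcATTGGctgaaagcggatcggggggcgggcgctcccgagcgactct
Idi1: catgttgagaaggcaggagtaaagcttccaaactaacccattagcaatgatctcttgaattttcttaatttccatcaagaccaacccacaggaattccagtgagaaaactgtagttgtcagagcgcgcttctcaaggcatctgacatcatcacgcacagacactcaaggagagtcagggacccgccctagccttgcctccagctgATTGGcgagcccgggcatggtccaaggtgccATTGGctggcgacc
Srebf2: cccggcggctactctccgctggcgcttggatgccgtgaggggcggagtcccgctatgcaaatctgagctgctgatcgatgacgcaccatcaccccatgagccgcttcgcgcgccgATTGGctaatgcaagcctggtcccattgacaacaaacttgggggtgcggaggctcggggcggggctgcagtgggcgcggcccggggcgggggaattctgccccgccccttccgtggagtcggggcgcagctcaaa
TCACNCCAC was found in 1 of the 5 promoters, that of Hmgcs1 at position −137 from its start site, and in 1.05% of all 32851 promoter windows of this length. CCAAT was found in all 5 against 33.8% of all windows. The Hmgcs1 window held 3 such boxes, at −237, −176 and −45, and those of Idi1 lay at −45 and −14. The GC box letters GGGCGG were also found in all 5, against 32.7% of all windows, and the E box CACGTG in Insig1 alone, against 6.02%. These are matches of letters and no test of binding.

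Arrays were compared on the log2 scale, as the processed Cy3 signal relative to the 75th percentile of each array, and a difference of 1 is a 2-fold change. Between 46.6% and 60.6% of probes were well above background. The arrays lay on 2 slides. Slide 1 held 8 arrays, with both arrays of unstimulated cells and of anti-CD40 + Pam2CSK4, and slide 2 held 4 arrays, the second of each other condition. Of the 31596 probes tested 18073 differed between the slides (limma, adjusted p under 0.05), and 5 of the 8 members' brightest probes lay lower on slide 2, at differences of −0.29 to −0.17 with an adjusted p of 0.0339 or less. Sqle lay lower at −0.22 (adjusted p = 0.0449), and Fdps (−0.13) and Cyp51 (0.08) did not pass. Each comparison is therefore given without and with the slide as a term. On slide 1 alone, the 4 conditions split over the slides have 1 array each, which was assumed to vary like the pairs of unstimulated and anti-CD40 + Pam2CSK4 arrays. All 9 B cell markers were well above background on every array. Of the 9 T cell and 9 myeloid markers on the array, 8 to 9 and 9 were above background too. Their summed log2 levels (the log2 of the markers' summed signals) lay between 4.26 and 4.80 and between 8.17 and 8.67. That of the B cell markers lay between 8.33 and 8.98, so it overlapped with the myeloid one. Of 7 genes that check the stimulation, 4 rose and 1 fell after anti-CD40 + Pam2CSK4, Il2ra among the risers, beside 18.2% of probes called. After anti-CD40 alone 4 rose and 1 fell (16.7%). After Pam2CSK4 2 rose (0.136%), and 2 rose after anti-CD86 + Pam2CSK4 (10.6%). After anti-CD86 alone 0 were called (2.14%), at a median of −0.35. With a slide term 3 fell and 0 rose after anti-CD86 alone, beside 28.3% of probes.

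Liver transcripts separated both anti-CD40 + Pam2CSK4 arrays from the other 10. Albumin (Alb) read −2.47 and −3.47 there, 2.20 and 2.16 in unstimulated cells, and between 1.25 and 1.79 on the other 8 arrays. Of the 8 liver markers listed 7 were on the array. Their summed level was −0.70 and −0.29 after anti-CD40 + Pam2CSK4, 3.29 on both unstimulated arrays and 2.35 to 2.88 elsewhere, with 1 to 4 against 5 to 6 of the 7 above background and Ttr above background on no array. Alb and Fgb differed from unstimulated cells by −5.15 and −4.41 on the log2 scale (limma, adjusted p = 7.12e-05 and 8.59e-06), with array 1 of the 2 anti-CD40 + Pam2CSK4 arrays well above background for both, and Apoa2 was well above background on neither. Liver makes the cholesterol enzymes too. The part of these transcripts in the results below was not tested. In such bulk samples fewer cells of a type and less RNA per cell cannot be told apart.

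**Figure D1:**
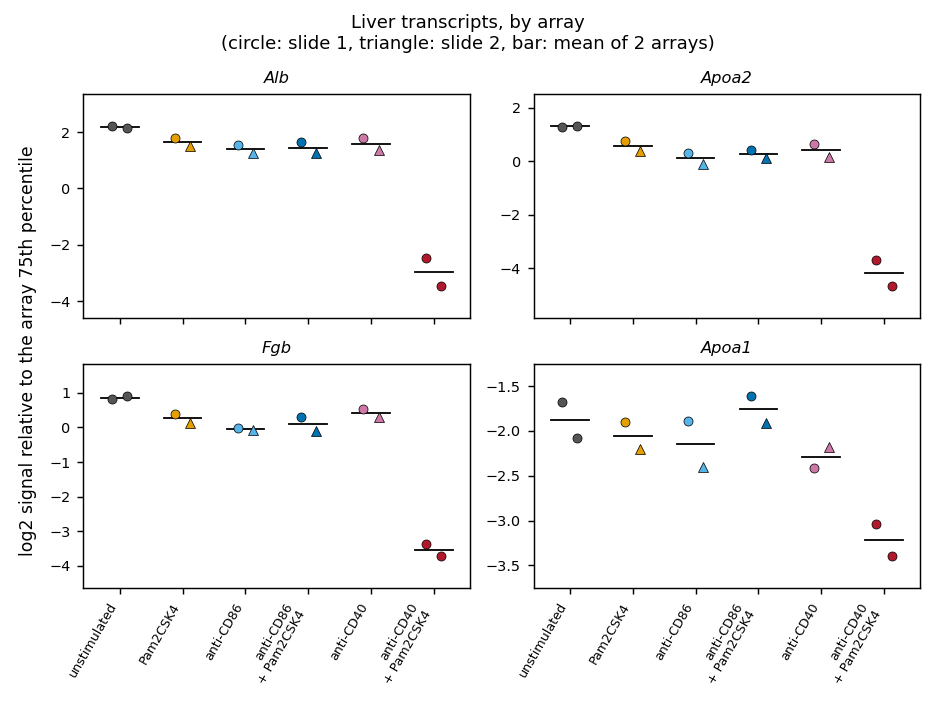
Signal of 4 liver transcripts on each array (log2, relative to the array 75th percentile) by condition, with circles for slide 1, triangles for slide 2 and a bar at the mean of 2 arrays. Both anti-CD40 + Pam2CSK4 arrays lie below the other 10 for all 4, with Alb at −2.47 and −3.47. Array 2 of that condition, and for Apoa2 both arrays, were not well above background.

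Srebf2, which encodes the transcription factor SREBP2 (chromosome 15, 82147269 to 82205379 in GRCm38.p6), was highest after anti-CD40 + Pam2CSK4. It read 1.67 and 1.64 in unstimulated cells, 1.34 and 1.12 after Pam2CSK4, 1.94 and 1.75 after anti-CD86, 1.52 and 1.16 after anti-CD86 + Pam2CSK4, 2.00 and 1.66 after anti-CD40, and 2.43 and 2.36 after anti-CD40 + Pam2CSK4. Both arrays of the last condition lay above all other arrays, and both of Pam2CSK4 lay below both unstimulated arrays. Neighbours in the order of the means stood beyond the spread if the means differed by more than the larger SD without overlap of arrays. This describes 2 arrays a condition and is no test, and the share of all probes meeting it was not computed. Anti-CD40 + Pam2CSK4 (2.39 ± 0.05, SD, n = 2) stood beyond the spread from anti-CD86 (1.85 ± 0.14), and unstimulated cells (1.65 ± 0.02) from anti-CD86 + Pam2CSK4 (1.34 ± 0.25). The latter difference did not pass (limma, adjusted p = 0.251). Anti-CD86 and anti-CD40, anti-CD40 and no stimulation, and anti-CD86 + Pam2CSK4 and Pam2CSK4 did not differ beyond their spread.

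Insig1, which encodes the sterol-sensing anchor of SREBP2 (chromosome 5, 28071412 to 28078662), lay below the 75th percentile of every array. It read −0.69 and −0.76 in unstimulated cells, −0.73 and −1.08 after Pam2CSK4, −1.15 and −1.17 after anti-CD86, −0.74 and −1.21 after anti-CD86 + Pam2CSK4, −0.87 and −1.08 after anti-CD40, and −0.93 and −0.72 after anti-CD40 + Pam2CSK4. Both anti-CD86 arrays lay below both unstimulated arrays. Only anti-CD86, the lowest, stood beyond the spread from the next condition, anti-CD40 (−1.16 ± 0.01 against −0.98 ± 0.15). The dimmer Insig1 probe, well above background on every array, had another order. It was lowest after anti-CD40 (mean −2.26) and highest after anti-CD86 + Pam2CSK4 (mean −1.61). Its anti-CD86 arrays (−1.82 and −2.01) overlapped with its unstimulated arrays (−1.91 and −1.80).

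Hmgcs1, which makes HMG-CoA (chromosome 13, 119690351 to 119708260), fell into higher and lower conditions. It read 3.08 and 3.09 in unstimulated cells, 2.75 and 2.68 after Pam2CSK4, 2.86 and 2.72 after anti-CD86, 2.69 and 2.48 after anti-CD86 + Pam2CSK4, 3.28 and 3.0 after anti-CD40, and 3.25 and 3.32 after anti-CD40 + Pam2CSK4. All 6 arrays with Pam2CSK4, anti-CD86 or both lay below both unstimulated arrays. Between neighbours in the order, the gap from unstimulated cells (3.09 ± 0.00) to anti-CD86 (2.79 ± 0.10) was the only one beyond the spread.

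**Figure D2:**
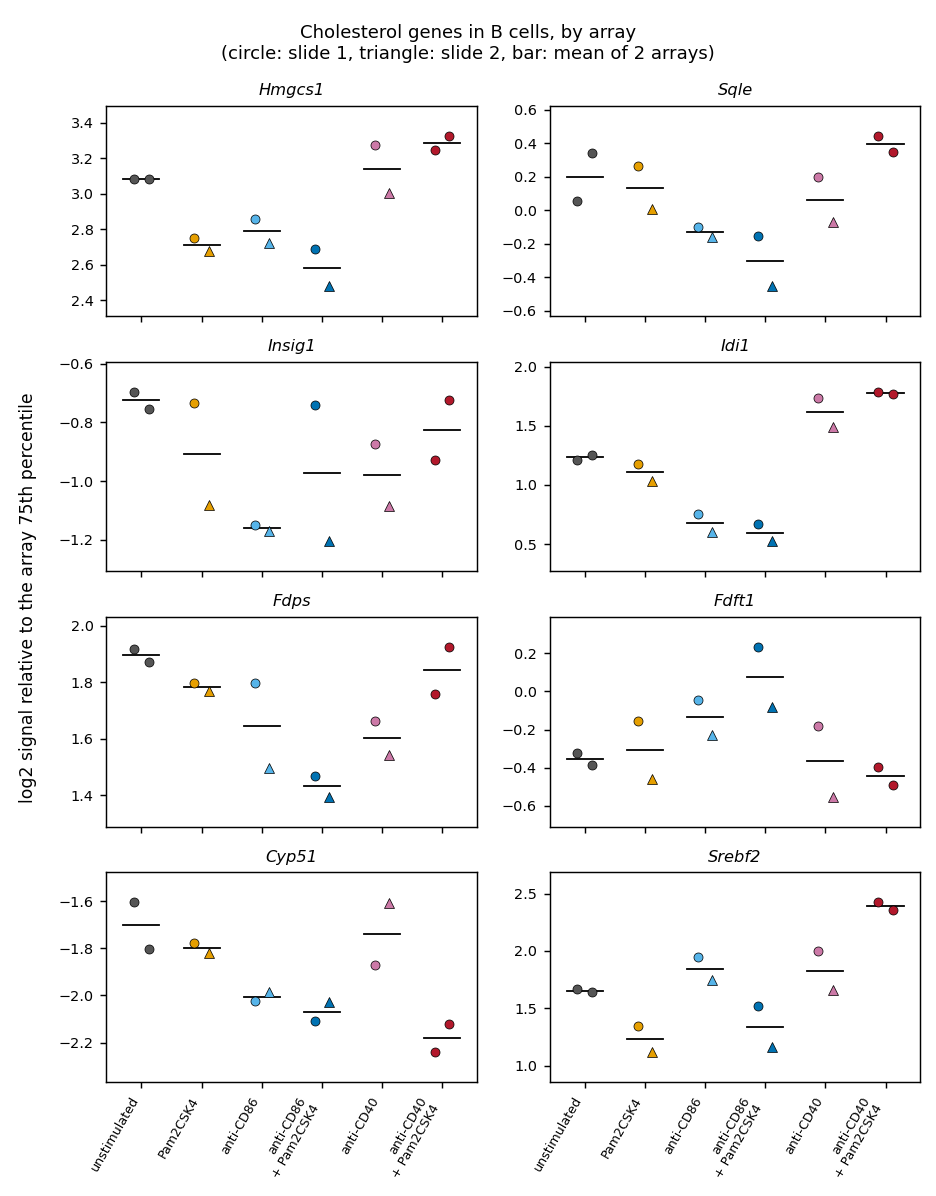
Signal of the 8 cholesterol genes on each array (log2, relative to the array 75th percentile) by condition, with circles for slide 1, triangles for slide 2 and a bar at the mean of 2 arrays. Hmgcs1, Sqle, Idi1 and Srebf2 have their highest mean after anti-CD40 + Pam2CSK4. Hmgcs1, Sqle, Idi1 and Fdps have their lowest after anti-CD86 + Pam2CSK4. Of these, only the highest of Srebf2 and the lowest of Fdps stand beyond the spread from the next condition.

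Idi1, the isomerase that readies isoprene units for joining (chromosome 13, 8885606 to 8892396), spread over the widest range of means among the 8 genes. It read 1.21 and 1.25 in unstimulated cells, 1.18 and 1.04 after Pam2CSK4, 0.76 and 0.60 after anti-CD86, 0.67 and 0.52 after anti-CD86 + Pam2CSK4, 1.74 and 1.49 after anti-CD40, and 1.79 and 1.77 after anti-CD40 + Pam2CSK4. The 4 arrays with anti-CD40 lay above both unstimulated arrays and the 4 with anti-CD86 below them. Anti-CD40 (1.61 ± 0.18), unstimulated (1.23 ± 0.03), Pam2CSK4 (1.11 ± 0.10) and anti-CD86 (0.68 ± 0.11) each stood beyond the spread from the next of them. Anti-CD40 with and without Pam2CSK4, and anti-CD86 with and without it, did not.

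Fdps, which joins isoprene units to farnesyl diphosphate (chromosome 3, 89093588 to 89101967), had its lowest level after anti-CD86 + Pam2CSK4. It read 1.92 and 1.87 in unstimulated cells, 1.80 and 1.77 after Pam2CSK4, 1.80 and 1.5 after anti-CD86, 1.47 and 1.40 after anti-CD86 + Pam2CSK4, 1.66 and 1.54 after anti-CD40, and 1.76 and 1.93 after anti-CD40 + Pam2CSK4. The gap between anti-CD40 and anti-CD86 + Pam2CSK4 was the only one between neighbours that was beyond the spread.

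Fdft1, which joins farnesyl units to squalene (chromosome 14, 63145150 to 63181687), ran the other way. It read −0.32 and −0.39 in unstimulated cells, −0.16 and −0.46 after Pam2CSK4, −0.05 and −0.23 after anti-CD86, 0.23 and −0.08 after anti-CD86 + Pam2CSK4, −0.18 and −0.55 after anti-CD40, and −0.40 and −0.49 after anti-CD40 + Pam2CSK4. The highest 3 arrays were among the 4 with anti-CD86, and no 2 neighbours in the order differed beyond their spread.

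Sqle, the next enzyme after squalene (chromosome 15, 59315092 to 59331193), read 0.06 and 0.34 in unstimulated cells, 0.26 and 0.01 after Pam2CSK4, −0.10 and −0.16 after anti-CD86, −0.15 and −0.45 after anti-CD86 + Pam2CSK4, 0.20 and −0.07 after anti-CD40, and 0.44 and 0.35 after anti-CD40 + Pam2CSK4. The 4 arrays with anti-CD86 lay below both unstimulated arrays, and only anti-CD40 and anti-CD86 differed beyond the spread as neighbours.

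Cyp51, a sterol demethylase (chromosome 5, 4080674 to 4104697), read −1.60 and −1.80 in unstimulated cells, −1.78 and −1.82 after Pam2CSK4, −2.02 and −1.99 after anti-CD86, −2.11 and −2.03 after anti-CD86 + Pam2CSK4, −1.87 and −1.61 after anti-CD40, and −2.24 and −2.12 after anti-CD40 + Pam2CSK4. The lowest 2 arrays were those of anti-CD40 + Pam2CSK4. Unstimulated, anti-CD40 and Pam2CSK4 did not differ beyond the spread as neighbours, and the conditions below them did. A dimmer Cyp51 probe, well above background on every array, had another order. Its means were −1.86 in unstimulated cells, −1.87 after anti-CD40 + Pam2CSK4 and between −2.28 and −2.14 after the other stimulations.

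After Pam2CSK4 alone no member passed the test against unstimulated cells, which asks what the TLR-2 signal did on its own. The limma count was 0 of 8, beside 0.136% of all probes, and 2 members had an unadjusted p under 0.05. Hmgcs1 differed by −0.37 ± 0.13 on the log2 scale (SE, adjusted p = 0.257) and Srebf2 by −0.42 ± 0.17 (adjusted p = 0.295). Once the slide was included, 2 of 8 fell, beside 10.8% of probes called in either direction. These were Hmgcs1, by 0.29 (adjusted p = 0.0467), and Srebf2, by 0.29 (adjusted p = 0.0419). The other 6 lay between −0.14 and 0.19 in that fit. With the probes of a gene averaged, and no slide term, Srebf2 stood at 0.0045, and its dimmer probe was well above background on neither unstimulated array.

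After anti-CD86 alone 0 of 8 were called, beside 2.14% of probes, and 3 had an unadjusted p under 0.05. Idi1 came nearest at −0.55 ± 0.13 (adjusted p = 0.0639), and limma with unmoderated variance called 1 member. The fit with a slide term called 3 of 8, beside 28.3% of probes. Idi1 fell by 0.47 (adjusted p = 0.00311), while Srebf2 was higher by 0.33 (adjusted p = 0.0127) and Fdft1 by 0.36 (adjusted p = 0.012). On slide 1 alone none of these passed, with Idi1 at −0.48 (adjusted p = 0.0515).

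After anti-CD86 + Pam2CSK4, the pair of signals the study set out to test, Hmgcs1 and Idi1 fell. They were 2 of 8, beside 10.6% of probes. Idi1 was 1.55-fold lower than in unstimulated cells, with a log2 fold change of −0.64 ± 0.13 (adjusted p = 0.0252). Hmgcs1 was 1.42-fold lower at −0.50 ± 0.13 (adjusted p = 0.0491). Of the 8 genes 7 lay below 0, with a median of −0.41 against −0.03 over all probes, and Fdft1 was the exception at 0.43 ± 0.18 (adjusted p = 0.147). Including the slide, 6 of 8 passed, beside 34.9% of probes. Hmgcs1 fell by 0.42 (adjusted p = 0.00526), Idi1 by 0.55 (adjusted p = 0.00129), Fdps by 0.40 (adjusted p = 0.017), Sqle by 0.39 (adjusted p = 0.0393) and Cyp51 by 0.41 (adjusted p = 0.0247), and Fdft1 rose by 0.58 (adjusted p = 0.00211). On slide 1 alone, with 1 stimulated array, Idi1 stood at −0.56 (adjusted p = 0.0344), Hmgcs1 at −0.40 (adjusted p = 0.0449) and Fdft1 at 0.59 (adjusted p = 0.0358). The dimmer Idi1 probe was well above background on neither anti-CD86 + Pam2CSK4 array and that of Hmgcs1 on 1 of 2, so they give no second measurement of these differences. The call for Idi1 was lost without either array of unstimulated cells, anti-CD86 + Pam2CSK4 or anti-CD40 + Pam2CSK4 (adjusted p = 0.0541 to 0.159, log2 fold change −0.71 to −0.56 over all 12 such fits). That for Hmgcs1 was lost without any one array except those of anti-CD40 (adjusted p = 0.0653 to 0.220). Fgb, the liver marker that also passed here, stood at −0.76 (adjusted p = 0.0416), beside Alb at −0.73 ± 0.31 (adjusted p = 0.162). Of 6 natural killer cell markers 3 were lower here too, with a summed log2 level of 3.20 to 3.34 against 3.78 to 3.80 in unstimulated cells. Of 9 myeloid markers 4 were lower, Emr1 (−0.89), Itgam (−0.79), Csf1r (−0.74) and S100a8 (−0.58), with a median of −0.30 and a summed log2 level of 8.23 to 8.38 against 8.44 to 8.55. The part of these markers in the result was not tested.

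After anti-CD40 alone 0 of 8 were called by limma, beside 16.7% of probes, and 1 had an unadjusted p under 0.05. Idi1 stood at 0.38 ± 0.13 (adjusted p = 0.0766). A slide term brought this to 2 of 8, beside 37.1% of probes: Idi1 was higher by 0.47 (adjusted p = 0.00128) and Srebf2 by 0.31 (adjusted p = 0.0107). On slide 1 alone, which holds 1 anti-CD40 array, the values were 0.51 (adjusted p = 0.028) and 0.34 (adjusted p = 0.0492), with the spread taken from unstimulated and anti-CD40 + Pam2CSK4 arrays. Scaling each array to its median in place of its 75th percentile turned both below 0, at −0.19 for Idi1 and −0.39 for Srebf2, and in that scaling the median of all probes stood at −0.58. Of the natural killer cell and myeloid markers 3 of 6 and 2 of 9 were lower after anti-CD40, and their part was not tested.

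After anti-CD40 + Pam2CSK4, Srebf2 and Idi1 rose and the brightest Cyp51 probe fell. They were 3 of 8, beside 18.2% of probes. Srebf2 was 1.67-fold higher than in unstimulated cells at 0.74 ± 0.17 (adjusted p = 0.0206), and Idi1 was 1.46-fold higher at 0.55 ± 0.13 (adjusted p = 0.0221). Cyp51 was lower at −0.48 ± 0.13 (adjusted p = 0.0358), but a dimmer probe, well above background on all 4 arrays, gave −0.01 (adjusted p = 0.98), and the dimmest was above background on 1 of 2 unstimulated arrays. The dimmer Idi1 probe, above background on all 4 arrays, gave 0.63 (adjusted p = 0.353), and that of Srebf2 was above background on neither unstimulated array. The other 5 members lay between −0.10 and 0.20. All 4 arrays of this comparison lay on slide 1, so its fold changes were the same with a slide term. In that fit 4 of 8 passed, beside 47.4% of probes, with Hmgcs1 added at 0.20 (adjusted p = 0.0407). These are the arrays low in liver transcripts: Alb differed by −5.15 here, and 2 of 6 natural killer cell markers and 4 of 9 myeloid markers were lower as well. The myeloid markers were Itgam (−0.81), Emr1 (−0.77), Csf1r (−0.71) and S100a8 (−0.46), while the summed log2 level of the 9 was 8.48 to 8.67 against 8.44 to 8.55 in unstimulated cells, and their part in the result was not tested. The calls for Srebf2 and Idi1 were lost without any one of the 4 arrays compared (adjusted p = 0.0950 to 0.118 and 0.111 to 0.131), at log2 fold changes of 0.70 to 0.77 and 0.53 to 0.56. That for Cyp51 was also lost without an array of Pam2CSK4 or anti-CD86 (adjusted p = 0.0542 to 0.230, log2 fold change −0.58 to −0.38). Over the 5 stimulations, in the order given here, the arrays did not overlap with those of unstimulated cells for 4, 8, 7, 3 and 6 of the 8 members, beside 57.5%, 62.3%, 64.0%, 62.2% and 76.0% of all probes tested.

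**Figure D3:**
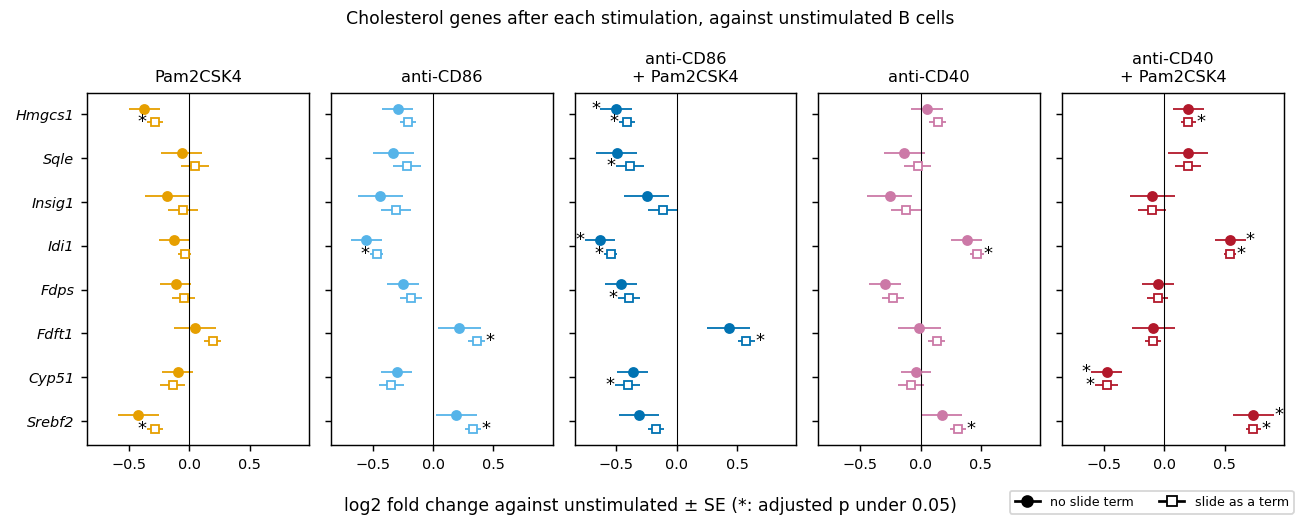
Log2 fold change of the 8 genes against unstimulated cells (horizontal axis, ± SE) after each of 5 stimulations. Filled circles are the fit without a slide term, open squares the fit with it, and asterisks mark an adjusted p under 0.05; Idi1 is at −0.64 after anti-CD86 + Pam2CSK4 and at 0.55 after anti-CD40 + Pam2CSK4.

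Adding Pam2CSK4 to anti-CD86, or anti-CD86 to Pam2CSK4, called 0 of 8 members by limma. The background was 0.225% and 0.0633% of probes, and 1 and 3 members had an unadjusted p under 0.05. Against anti-CD86 alone the pair of signals gave differences from −0.51 to 0.21, and against Pam2CSK4 alone from −0.51 to 0.38. In the fit with a slide term, Srebf2 differed by −0.51 from anti-CD86 alone (adjusted p = 0.0113), 1 of 8 beside 7.55% of probes. It was lower on slide 1 (−0.43) and on slide 2 (−0.58). In the same fit Idi1 differed by −0.51 from Pam2CSK4 alone (adjusted p = 0.00847), with −0.51 on each slide, and Fdft1 was higher by 0.38 (adjusted p = 0.0214), 2 of 8 beside 10.7% of probes. Slide 2 holds 1 array of each condition, so its values have no test.

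With anti-CD40 added to Pam2CSK4, Srebf2, Idi1 and Hmgcs1 were higher, 3 of 8 beside 9.91% of probes. Liver markers were lower in this comparison, 6 of 6 tested at a median of −2.97, and their part was not tested. Srebf2 differed by 1.16 ± 0.17 (adjusted p = 0.00589), Idi1 by 0.67 ± 0.13 (adjusted p = 0.0162) and Hmgcs1 by 0.57 ± 0.13 (adjusted p = 0.0327). Including the slide, 5 of 8 passed, beside 31.4% of probes. Srebf2 was then at 1.02, and Fdft1 (−0.28, adjusted p = 0.0247) and Cyp51 (−0.34, adjusted p = 0.0492) were lower. In fits without a slide term, these 2 turned to 0.015 without Pam2CSK4 array 1 and to 0.098 with probes averaged. Without anti-CD40 + Pam2CSK4 array 1, Srebf2 had an adjusted p of 0.0536. The calls for Idi1 and Hmgcs1 were lost without 3 and 8 of the 12 arrays, either array of anti-CD40 + Pam2CSK4 included (adjusted p = 0.103 to 0.109 and 0.0536 to 0.190). Pam2CSK4 added to anti-CD40 called 0 of 8 by limma, beside 2.90% of probes, and 2 had an unadjusted p under 0.05. Here 5 of 6 liver markers were lower, at a median of −3.08. Srebf2 passed once the slide was included, at 0.43 (adjusted p = 0.00954), 1 of 8 beside 15.0% of probes, with 0.40 on slide 1 alone (adjusted p = 0.0895).

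Without a slide term, the combined stimuli differed from each other in more members than in any other comparison made. Against anti-CD86 + Pam2CSK4, anti-CD40 + Pam2CSK4 gave higher Idi1, Srebf2, Hmgcs1 and Sqle, 4 of 8 beside 12.2% of probes. Idi1 was 2.27-fold higher at 1.18 ± 0.13 (adjusted p = 0.00171) and Srebf2 differed by 1.05 ± 0.17 (adjusted p = 0.00775). Hmgcs1 differed by 0.70 ± 0.13 (adjusted p = 0.0133) and Sqle by 0.70 ± 0.17 (adjusted p = 0.0333). The median over the 8 was 0.55, against 0.04 over all probes, and the arrays did not overlap for 7 of the 8, and for 60.9% of all probes tested. The slide term brought this to 6 of 8, beside 34.5% of probes. Fdps then passed at 0.34 (adjusted p = 0.0286) and Fdft1 at −0.67 (adjusted p = 0.000855). On slide 1 alone, with 1 anti-CD86 + Pam2CSK4 array, Idi1 (1.11, adjusted p = 0.0185), Srebf2 (0.87, adjusted p = 0.0193), Hmgcs1 (0.60, adjusted p = 0.0253) and Fdft1 (−0.68, adjusted p = 0.0255) passed and Sqle did not (0.55, adjusted p = 0.093). Leaving out any one array left Idi1 called, with an adjusted p of at most 0.0215. Srebf2 and Hmgcs1 lost the call without either anti-CD40 + Pam2CSK4 array (adjusted p of at most 0.0618 and 0.10), Hmgcs1 also without anti-CD86 + Pam2CSK4 array 2, and Sqle without any of 7 arrays, those of unstimulated cells, anti-CD86 and anti-CD40 + Pam2CSK4 and array 2 of anti-CD86 + Pam2CSK4 (adjusted p = 0.0515 to 0.174). Alb differed by −4.42 in this comparison (adjusted p = 0.000269).

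Whether both signals together did more than their sum was tested as an interaction. For anti-CD86 and Pam2CSK4 0 of 8 members passed by limma without the slide, beside 0.0190% of probes, and 0 of 8 with it, beside 0.234%, and 0 and 1 had an unadjusted p under 0.05. The values lay between −0.11 and 0.37 without the slide. For anti-CD40 and Pam2CSK4 0 of 8 passed, beside 1.15% of probes, and 2 had an unadjusted p under 0.05. Srebf2 had the largest value, 0.99 ± 0.24 (adjusted p = 0.113). It passed with a slide term at 0.71 ± 0.10 (adjusted p = 0.0123), 1 of 8 beside 8.41% of probes. The dimmer Srebf2 probe, at background on both unstimulated arrays, gives no second measurement. Liver markers were lower in the same interaction, 3 of 6 tested at a median of −2.61 without the slide. Their part was not tested.

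The other pathway genes were taken from lists chosen beside the members. Of 17 symbols listed for further enzymes of synthesis, Sc4mol and Msmo1 both among them as names of the same enzyme, 16 were on the array and tested. Against unstimulated cells 0 of 16 were called by limma after Pam2CSK4 or anti-CD86 (4 and 7 fell and 1 and 0 rose with a slide term, beside 10.8% and 28.3% of probes), 3 fell after anti-CD86 + Pam2CSK4, 7 fell after anti-CD40, and 4 fell and 1 rose after anti-CD40 + Pam2CSK4, beside 10.6%, 16.7% and 18.2% of probes called in either direction. Medians over the 16 were −0.47, −0.56 and −0.39 in the last 3 comparisons. Including the slide, 8, 11 and 10 fell and 1, 1 and 2 rose, beside 34.9%, 37.1% and 47.4% of probes. The steps that rework the sterol ring after Cyp51 supplied most of the falls. Tm7sf2, a sterol reductase, differed by −0.79 after anti-CD86 + Pam2CSK4 (adjusted p = 0.0115), by −0.66 after anti-CD40 (adjusted p = 0.0105) and by −0.47 after anti-CD40 + Pam2CSK4 (adjusted p = 0.0242). Dhcr7, the reductase of the last step to cholesterol, differed by −0.73, −0.77 and −0.65 (adjusted p = 0.0321, 0.0191 and 0.0273). Sc4mol, the sterol methyl oxidase, differed by −0.61, −0.60 and −0.69 (adjusted p = 0.0486, 0.0392 and 0.0218). Nsdhl, which acts beside it, fell after anti-CD40 by 0.84 (adjusted p = 0.0133) and after anti-CD40 + Pam2CSK4 by 0.57 (adjusted p = 0.0396). After anti-CD40 alone Ebp (−0.81, adjusted p = 0.0426), Sc5d (−0.74, adjusted p = 0.029) and the mevalonate enzyme Pmvk (−0.67, adjusted p = 0.0488) were lower too. Averaging the probes of a gene ended the call for Dhcr7 in each comparison given. It also ended those for Nsdhl and Pmvk after anti-CD40. The call for Sc4mol after anti-CD86 + Pam2CSK4 was lost in that fit too. Sc4mol had no second probe tested, so nothing was averaged for it.

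Mvd, the decarboxylase just before Idi1, was the further enzyme that rose. It read 2.44 and 2.46 in unstimulated cells, 2.73 and 2.33 after Pam2CSK4, 2.51 and 2.13 after anti-CD86, 2.89 and 2.40 after anti-CD86 + Pam2CSK4, 3.24 and 2.69 after anti-CD40, and 3.61 and 3.59 after anti-CD40 + Pam2CSK4. Both arrays of the last condition lay above all others. Mvd was higher there by 1.15 ± 0.25 than in unstimulated cells (adjusted p = 0.0162). With a slide term it was higher by 0.74 after anti-CD40 (adjusted p = 0.000468). The Mvd call was lost without any one of the 4 arrays compared (adjusted p = 0.0856 to 0.0917).

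**Figure D4:**
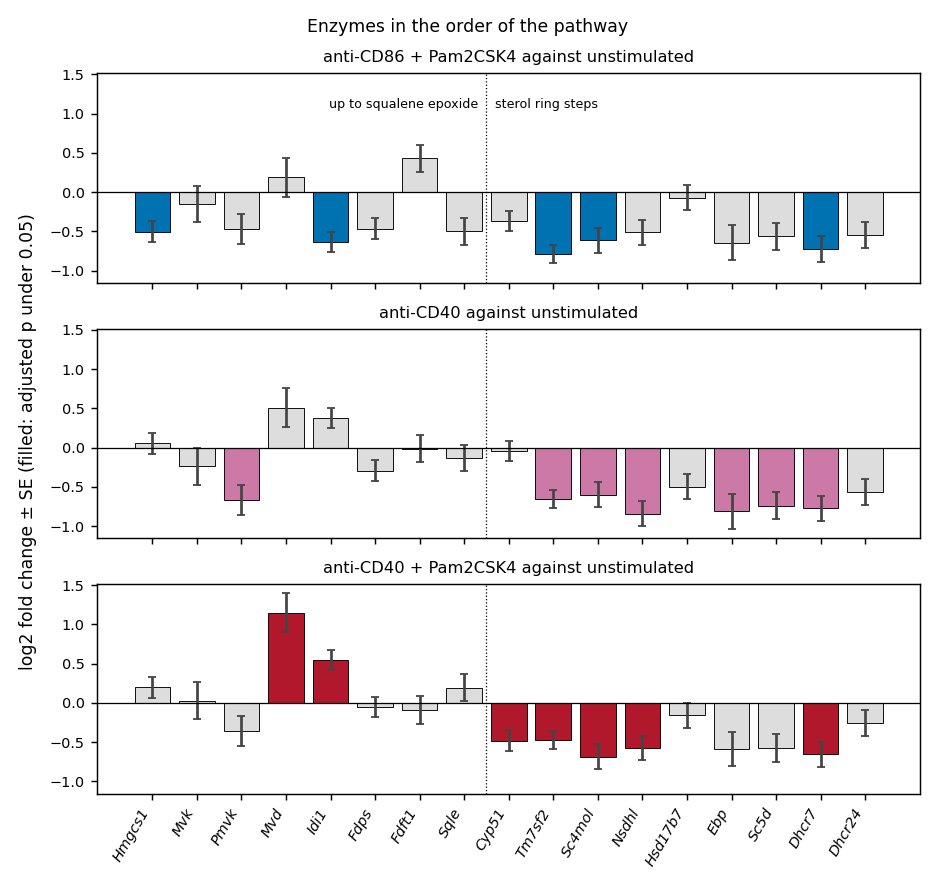
Log2 fold change against unstimulated cells (bars, ± SE, fit without the slide) of 17 enzymes in the order of the pathway after 3 stimulations, with filled bars for an adjusted p under 0.05 and a dotted line where the sterol ring steps begin. After anti-CD40 + Pam2CSK4, Mvd (1.15) and Idi1 (0.55) rose while Tm7sf2 (−0.47), Sc4mol (−0.69) and Dhcr7 (−0.65) fell.

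Of 11 genes for sensing and regulation 10 were tested. Mylip, a ubiquitin ligase induced by sterols, differed by −0.68 after anti-CD86 + Pam2CSK4 (adjusted p = 0.0446), by −1.21 after anti-CD40 (adjusted p = 0.00569) and by −1.40 after anti-CD40 + Pam2CSK4 (adjusted p = 0.00169). Mbtps2, the protease that makes the last cut in SREBP2, was higher by 0.78 and 0.68 in the last 2 (adjusted p = 0.0181 and 0.023). Averaging the probes of a gene ended the calls for Mylip after anti-CD86 + Pam2CSK4 and for Mbtps2 after anti-CD40. These were 1, 2 and 2 of 10, shares near the 10.6%, 16.7% and 18.2% of all probes. Of 8 tested genes for uptake and transport 1 was called against unstimulated cells: Lipa, the lysosomal lipase that frees cholesterol from its esters, fell after anti-CD40 + Pam2CSK4, at −1.46 ± 0.17 (adjusted p = 0.00141), beside 18.2% of probes.

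Of 5 tested genes for storage and efflux, the cholesterol exporters moved. Abca1 differed by −0.71 after anti-CD40 (adjusted p = 0.0173) and by −1.01 after anti-CD40 + Pam2CSK4 (adjusted p = 0.00312). Abcg1 differed by −0.62 after anti-CD86 + Pam2CSK4 (adjusted p = 0.0428) and by −0.73 after anti-CD40 + Pam2CSK4 (adjusted p = 0.0154). With 5 genes these counts of 1, 1 and 2 allow no reading against the shares of all probes. Of 9 tested fatty acid genes, targets of the related factor SREBP1, 1 fell after anti-CD86 + Pam2CSK4, 3 after anti-CD40 and 3 after anti-CD40 + Pam2CSK4, beside the same 10.6%, 16.7% and 18.2% of probes. Acss2 fell in the first 2 of these (−0.60 and −0.54, adjusted p = 0.0339 and 0.0348), Scd2 (−0.77 and −0.76, adjusted p = 0.0124 and 0.00845) and Elovl6 (−0.75 and −0.97, adjusted p = 0.027 and 0.00776) in the last 2, and Acly after anti-CD40 + Pam2CSK4 (−0.62, adjusted p = 0.0367). Of 10 tested genes for other uses of mevalonate 1 was called against unstimulated cells, Coq2 of ubiquinone synthesis at −0.53 after anti-CD40 (adjusted p = 0.0245), beside 16.7% of probes. No gene of these lists was called after Pam2CSK4 or anti-CD86 alone in the fit without the slide. Of the 33 calls against unstimulated cells in these lists, 3 held without any 1 array, those of Mylip, Lipa and Abca1 after anti-CD40 + Pam2CSK4, and each of the other 30 was lost without at least 2 and at most 10 of the 12 arrays. Scaling to the array median left 1 call, Mylip after anti-CD40.

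The 8 genes did not move as 1 block over the 12 arrays, which share 2 slides and hold 2 arrays of each condition. Hmgcs1 and Idi1 ran together, with a Pearson r of 0.90 over the arrays and 0.89 after each array was centred on its slide. Fdft1 ran against its neighbours in the pathway, with r of −0.51 to Hmgcs1, −0.63 to Idi1, −0.46 to Fdps and −0.48 to Sqle over the arrays, and of −0.82, −0.83, −0.79 and −0.85 after centring. The brightest Cyp51 probe followed none of them closely, and its dimmer probes were not compared in this way. Among 11995 other genes, Gm6579 was the nearest to Hmgcs1 (r = 0.991, and 0.987 after centring) and Slc25a33 to the mean of the members (0.990 and 0.981), both as measured and after centring. Lap3 was nearest to Idi1 as measured (0.992) and Ppfibp2 after centring (0.993). For Srebf2 these were Ddit4 (0.972) and Vprbp (0.976). These values describe 12 arrays and carry no test.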

How the data were processed

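Total RNA of RB cells was measured on 12 one-colour Agilent arrays in 6 conditions, grouped by the GEO labels. The authors extracted the scanner files with Feature Extraction 10.5.1.1, whose processed signal intensity is already background-corrected. The deposited series table holds log2 values of the same arrays, each differing from the scanner values by a constant per array, and was used as an alternative. From the scanner files, spots of a probe were averaged, log2 processed signal was taken minus the 75th percentile of each array, and 31596 of 61307 probes were tested, those that Feature Extraction marked well above background on the 2 arrays of some condition (70 more were dropped for a missing value). limma 3.58.1 in R 4.3.3 fitted 1 coefficient per condition over all 12 arrays, with Benjamini-Hochberg adjustment over all probes tested, two-sided, called at an adjusted p under 0.05. The study names a one-way analysis with no block. The alternatives were normexp (offset 50), median and quantile normalization, the deposited table, other filters, the slide or the replicate number as a term, slides alone, unmoderated variance, probes of a gene averaged, and each array left out. Only 2 arrays a condition limit the precision. The members, pathway lists, markers and motifs were chosen with earlier results of these data known. Named were all members, and pathway genes called against unstimulated cells; some items named by the rule are not reported here. Fits were tested on simulated data. Symbols are those of the array design, and promoters and gene positions are from RefSeq (GRCm38.p6). Marker lists given little room in the report (natural killer, dendritic, plasma and red cells, pancreas, kidney, muscle) are given here by level: natural killer, dendritic, plasma and red cells had summed log2 levels of at least 1.22 on every array, and pancreas, kidney and muscle of at most 0.90.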

Additional observations from a re-analysis of the deposited data

Results flagged for a closer look

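The interaction of anti-CD40 and Pam2CSK4 for Srebf2 is listed because its test passed with the slide as a term. The effect of both signals exceeded the sum of the single effects by 0.71 ± 0.10 on the log2 scale (limma, adjusted p = 0.0123), with both anti-CD40 + Pam2CSK4 arrays above all other arrays. Without the slide the value was 0.99 ± 0.24 (adjusted p = 0.113), and on slide 1 alone, with 1 array each of anti-CD40 and Pam2CSK4, 0.71 ± 0.10 (adjusted p = 0.103). Conditions of 2 arrays allow no check for an outlying array. Both anti-CD40 + Pam2CSK4 arrays are those low in liver transcripts. Of 6 liver markers tested 3 were lower in the same interaction, at a median of −2.61 without the slide. With the slide 3 were lower too, at a median of −2.85. These stood beside 1.15% and 8.41% of probes, and the part of these transcripts in the result was not tested.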

How the results depend on the processing

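No log2 fold change of a member that passed in the fit without a slide term, nor of a pathway gene that passed there against unstimulated cells, reversed under any alternative run. Some that passed only with a slide term did, and are given below. The count of members called moved most with the slide and with the scaling. With a slide term it became 2 for Pam2CSK4 against unstimulated cells, 3 for anti-CD86, 6 for anti-CD86 + Pam2CSK4 and 2 for anti-CD40, against 0, 0, 2 and 0 without it. It became 2 for anti-CD86 + Pam2CSK4 against Pam2CSK4, 1 against anti-CD86, 5 for anti-CD40 + Pam2CSK4 against Pam2CSK4, 1 against anti-CD40 and 1 for the interaction of anti-CD40 and Pam2CSK4. Slide 1 alone gave 2 for anti-CD40. Median normalization gave 0 in all 12 comparisons. No filter on dim probes gave 0 for both combined stimuli against unstimulated cells, 1 for anti-CD40 + Pam2CSK4 against Pam2CSK4 and 2 against anti-CD86 + Pam2CSK4. Averaging the probes of a gene gave 0 for anti-CD86 + Pam2CSK4 and 1 for anti-CD40 + Pam2CSK4 against unstimulated cells, and 1 for the latter against Pam2CSK4. Normexp gave 1 for anti-CD86, 4 for anti-CD86 + Pam2CSK4 and 1 for anti-CD40, quantile normalization 1 for anti-CD86 and 1 for anti-CD40, and both unmoderated variance and the filter on all arrays 1 for anti-CD86. These last 3 each gave 3 for anti-CD86 + Pam2CSK4. The causes were not tested. Leaving out 1 array gave 0 to 1 for anti-CD86 (Idi1, adjusted p = 0.0478 without an anti-CD40 array), 0 to 2 for anti-CD86 + Pam2CSK4, 0 to 3 for anti-CD40 + Pam2CSK4, 0 to 3 for it against Pam2CSK4 and 1 to 4 against anti-CD86 + Pam2CSK4.

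With the replicate block, the count was 1 for anti-CD86, 4 for anti-CD86 + Pam2CSK4 and 1 for anti-CD40 against unstimulated cells, 1 for anti-CD40 + Pam2CSK4 against anti-CD40, 1 for the interaction of anti-CD40 and Pam2CSK4 and 6 for anti-CD40 + Pam2CSK4 against anti-CD86 + Pam2CSK4. The labels do not say that a number marks a shared culture. Same-numbered deviations correlated at 0.54 to 0.67 among the 4 conditions split over slides and at −0.11 to 0.07 where unstimulated cells or anti-CD40 + Pam2CSK4 entered, so the numbers were not taken to pair the samples. In those 4 conditions the number and the slide cannot be told apart.

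Values that passed with a slide term and changed sign were Srebf2 after Pam2CSK4 (0.0045, probes averaged), Idi1 (−0.19) and Srebf2 (−0.39) after anti-CD40 under median normalization, and, in anti-CD40 + Pam2CSK4 against Pam2CSK4, Cyp51 (0.098, probes averaged) and Fdft1 (−0.29 to 0.015 without 1 array). Values that passed in neither fit and changed sign were Sqle after Pam2CSK4 (0.047 with a slide term, 0.065 on slide 1), Fdft1 after Pam2CSK4 (−0.15, median normalization), Srebf2 after anti-CD86 + Pam2CSK4 (0.084) with probes averaged, and, after anti-CD40, Hmgcs1 (−0.51) under median normalization, Sqle on slide 1 (0.00026) and Fdft1 (0.023 normexp, 0.13 slide term, 0.17 slide 1). Without 1 array, the ranges crossing 0 were −0.21 to 0.079 (Sqle), −0.11 to 0.20 (Fdft1) and −0.19 to 0.0020 (Cyp51) after Pam2CSK4, −0.082 to 0.19 (Hmgcs1), −0.28 to 0.0077 (Sqle), −0.20 to 0.17 (Fdft1) and −0.17 to 0.093 (Cyp51) after anti-CD40, and −0.20 to 0.0018 (Insig1) and −0.14 to 0.030 (Fdps) after anti-CD40 + Pam2CSK4. All 8 members were well above background on every array, so signal limits only their dimmer probes.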
